A study of Mus musculus with 32 samples.

Results

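The light polysome fraction of NIH 3T3/4E cells was set against that of NIH3T3 cells on 2-colour cDNA arrays, over both serum states together. The arrays carried the NIH 15k collection of mouse cDNA clones. Samples were taken by their labels: all columns labelled light fraction, which are 16 of the 32 columns of the series. The columns of a group fall into pairs, titles 1 with 2 and 3 with 4, in which 1 column was never below the other at any clone (tolerance 1e-06). Each pair was averaged and counted as 1 sample. This gave 8 light samples of 16 in all, 2 in each of 4 groups: 4E cells serum stressed, 4E cells basal, NIH3T3 cells serum stressed and NIH3T3 cells basal. NIH3T3 is a mouse fibroblast line, and the 4E cells are NIH 3T3 cells that overexpress the translation initiation factor eIF4E from an introduced gene. Basal cells grew in complete medium, and serum stressed cells had been without serum for 16 h. The light pool joins gradient fractions 4 to 6, and the heavy pool, used here only for comparison, fractions 7 to 10. Every array carried poly(A) RNA of NIH3T3 cells in full medium, not separated on a gradient, as the common second channel. The sources used here do not give the promoter of the introduced gene, nor whether the 4E cells are 1 clone or a pool.

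eIF4E binds the cap at the 5′ end of messenger RNAs and brings them to the small ribosomal subunit through its partner eIF4G. It is held back by the 4E-binding proteins, which let go of it when growth factor signalling is active. In a sucrose gradient, transcripts with few ribosomes stay in the light fractions and transcripts with many ribosomes sediment into the heavy ones. Overexpressed eIF4E is known to transform NIH 3T3 cells and to protect them from death when serum is removed. The question of the comparison was which transcripts differ in the light fraction when eIF4E is overexpressed, whatever the serum state.

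The values are log ratios against the common reference, taken as log2 and centred on the median of each sample. The direction of the ratio is not given, so differences are printed as coded, 4E minus NIH3T3, and a positive one does not mean more RNA. Total RNA of the 2 lines is not used here, so the amount of a transcript in the cells and the share of it in the light pool cannot be told apart. In these bulk pools, fewer cells carrying a transcript and less of it per cell cannot be told apart either. The files do not pair clones with genes, and 0 of the clone IDs matched an entry of RefSeq's table of mouse genes (GRCm38.p6). Eif4e itself, the gene lists and the fibroblast markers could therefore not be looked up, and no clone sequence is printed. Clones are named by ID, in each comparison at most 2 of either sign.

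Light samples of 1 group resembled each other more than most other pairs did. Between samples of 1 group, r across clones was 0.62 to 0.66. Samples of the same line in the other serum state correlated at r of 0.49 to 0.58. Samples of the other line correlated at r of 0.42 to 0.61 in the same serum state and at r of 0.49 to 0.65 in the other. Between serum states the median r was 0.54 within a line and 0.55 across lines, and within a serum state it was 0.63 in a group and 0.53 across lines. The spread of a sample, its median absolute deviation over clones, lay between 0.47 (NIH3T3 basal sample 1) and 0.68 (NIH3T3 serum stressed sample 1). Before centring, the medians were within 0.03 of 0. No label ties a sample to a culture of its own. What the p-values weigh is therefore the spread of these samples, which may be technical. A pair of control rows (3XSSC buffer and Arabidopsis) has values in the 4E serum stressed and NIH3T3 basal samples and none in the 4E basal and NIH3T3 serum stressed samples. Each line has 2 light samples on either side of that split, so the average over serum states is balanced over it, while each difference within 1 serum state crosses it.

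Over all clones the 2 cell lines were close in the light fraction. The mean of the 4 4E samples and the mean of the 4 NIH3T3 samples correlated at r = 0.79 across the 15210 clones measured in all 8 samples (clones are not independent replicates). These means spread similarly, with an SD over clones of 0.63 in 4E and 0.61 in NIH3T3. The median size of the difference was 0.22 log2 units, 90% of clones were within 0.63 and 99% within 1.28. A difference above 1 unit in size was found at 377 clones (2.48%), 230 of them positive and 147 negative. Of the sum of squares over clones and light samples, the cell line took 17.6%, serum 15.7%, the cell line by serum term 20.0% and the spread between samples of a group 46.8%. The cell line mean square was 1.5 times that between samples of a group. By an exact permutation test that relabels the cell lines within each serum state (36 relabellings, two-sided), the p was 0.111, where the smallest p this design allows is 0.0556.

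Some single clones nevertheless passed a test against the spread of their own samples. With serum state as a covariate, 35 clones (0.23% of those tested) differed between 4E and NIH3T3 light samples by limma at an adjusted p under 0.05. The difference was positive at 16 of them (0.105%) and negative at 19 (0.125%). Positive differences ran from 1.54 to 2.98 log2 units (median 1.98) and negative ones from -1.57 to -3.55 (median -1.92). At 33 of the 35 clones, chosen by a test on these same values, no 4E sample overlapped any NIH3T3 sample, against 4.19% of all clones tested. The other two were negative clones in which both lines had their higher values in the state without serum. The median 95% half-width of the difference, not adjusted for the number of clones, was 0.62 units.

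Clone H3058D02 had the largest positive difference. Its log2 ratio was 3.07 and 2.91 in the 4E serum stressed samples and 3.31 and 2.86 in the 4E basal samples, against -0.35 and -0.0036 in the NIH3T3 serum stressed samples and 0.27 and 0.30 in the NIH3T3 basal samples. All 4E samples thus lay at about the same high ratio, and all NIH3T3 samples near 0, the median ratio of a sample. The means were 3.04 ± 0.21 in 4E and 0.05 ± 0.30 in NIH3T3 cells (SD, n = 4 each), a difference of 2.98 (SE 0.23, limma adjusted p = 0.00120).

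Clone H3073H04 had the next largest positive difference and the tightest 4E samples of the named clones. They stood at 3.16 and 3.12 serum stressed and at 3.08 and 3.24 basal, against 0.05 and 0.64 in NIH3T3 serum stressed and 0.51 and 0.75 in NIH3T3 basal samples. The means were 3.15 ± 0.07 in 4E and 0.49 ± 0.30 in NIH3T3 cells (SD, n = 4 each), a difference of 2.66 (SE 0.23, limma adjusted p = 0.00188). Serum made little difference to this clone in 4E cells, where the 4 samples spanned less than the 2 NIH3T3 serum stressed samples did.

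Clone H3143B04 had the largest negative difference, and here the 4E samples were uneven. They stood at -3.39 and -2.14 serum stressed and at -0.90 and -0.64 basal, against 2.41 and 1.47 in NIH3T3 serum stressed and 1.15 and 2.09 in NIH3T3 basal samples. The sides did not overlap, and the 4E samples without serum were the lowest of the 8. The means were -1.77 ± 1.27 in 4E and 1.78 ± 0.57 in NIH3T3 cells (SD, n = 4 each), a difference of -3.55 (SE 0.50, limma adjusted p = 0.0240). This clone did not pass in 7 of its 22 alternative fits, with an adjusted p of up to 0.114.

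Clone H3039G05 was the next most negative. Its 4E samples stood at -3.20 and -3.11 serum stressed and at -2.74 and -2.53 basal, against -0.31 and -1.09 in NIH3T3 serum stressed and -0.36 and 0.03 in NIH3T3 basal samples. The lowest NIH3T3 sample was still well above the highest 4E sample. The means were -2.89 ± 0.31 in 4E and -0.43 ± 0.47 in NIH3T3 cells (SD, n = 4 each), a difference of -2.46 (SE 0.25, limma adjusted p = 0.00494).

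**Figure D1:**
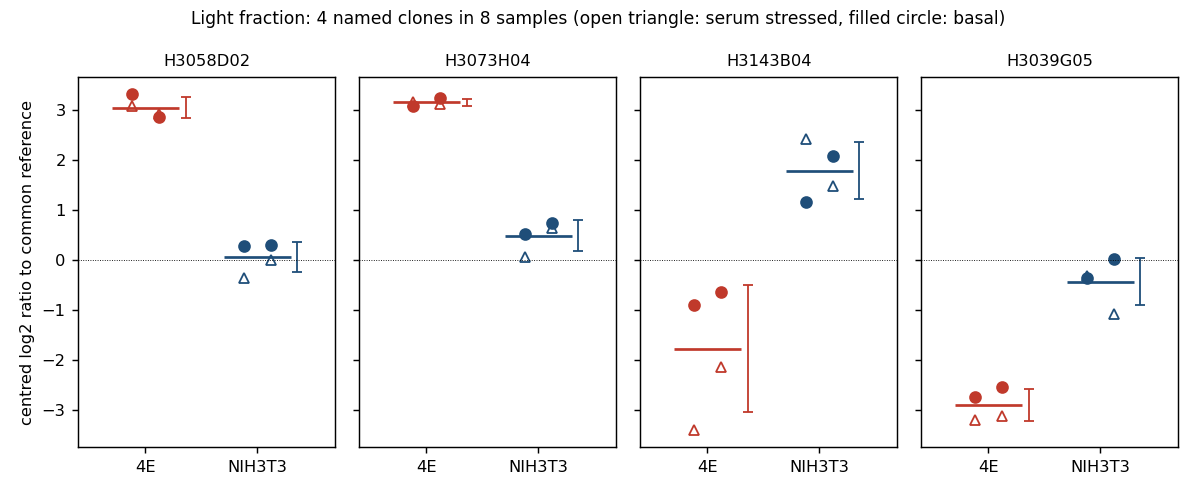
Centred log2 ratio to the common reference (y axis) of the named clones in the 4 4E and the 4 NIH3T3 light samples. Open triangles are serum stressed and filled circles basal samples, the line is the mean and the bar beside it the SD (n = 4). In all 4 clones the sides do not overlap, and only H3143B04 has 4E samples that spread as far as from -3.39 to -0.64.

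The clones that passed shared a pattern that the test did not ask for: the 4E cells were mostly the line that stood away from 0, the median ratio of a sample. The NIH3T3 mean was within 1 log2 unit of 0 at 27 of the 35 clones and the 4E mean at 6. Over all clones these shares were alike, 90.6% for NIH3T3 and 89.6% for 4E. The 4E mean was farther from 0 than the NIH3T3 mean at 28 of the 35, 14 of the positive and 14 of the negative clones, against 49.7% of all clones. At the positive clones the median over clones of the sample means was 2.19 in 4E and 0.14 in NIH3T3, and at the negative clones it was -1.77 in 4E and 0.35 in NIH3T3. The common reference is NIH3T3 RNA, so the reference and the NIH3T3 samples share a cell line. Whether this bears on the pattern was not tested. These shares describe clones chosen by the test and carry no test of their own.

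**Figure D2:**
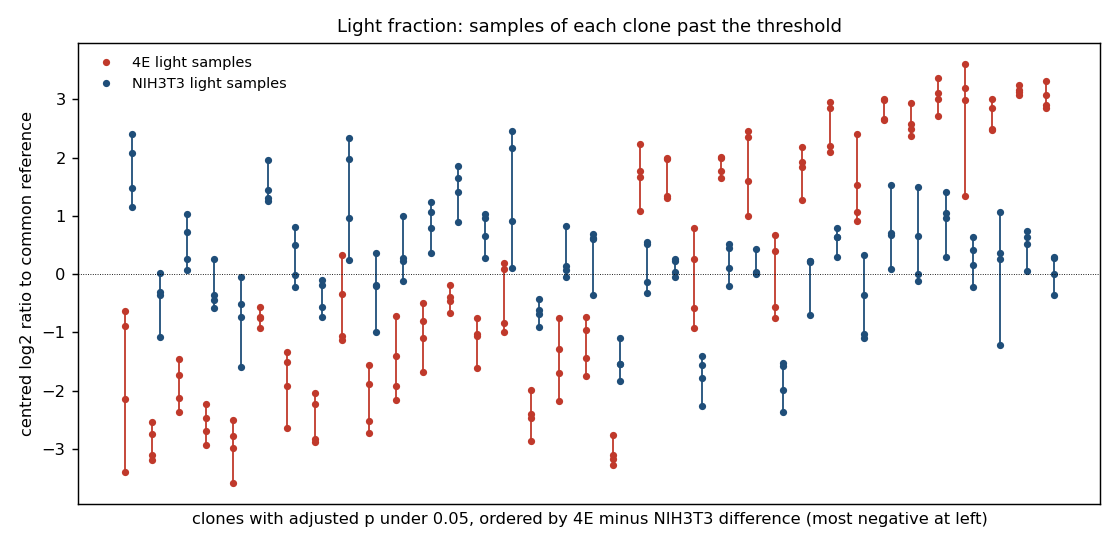
Centred log2 ratio (y axis) of each of the 35 clones past the threshold in the 4 4E (red, left of each pair) and the 4 NIH3T3 (blue) light samples, ordered from the most negative difference of -3.55 to the most positive of 2.98. Points are samples and lines their range. Most blue points lie near 0, and red points lie away from it on both sides.

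How many clones passed depended on every one of the 8 samples. Without 1 sample the count was 5 and 5 (4E serum stressed sample 1 and sample 2 left out), 3 and 12 (4E basal), 4 and 5 (NIH3T3 serum stressed) and 13 and 11 (NIH3T3 basal). Of the 35 clones, 3 passed in every one of these 8 fits, namely H3058D02, H3073H04 and H3039G05, and 14 passed in none of them. The largest adjusted p that any of the 35 reached there was 0.198. None of the 35 changed sign in any alternative fit, which the lack of overlap at 33 of them and the size of their differences all but fixed. A fit of all 16 samples with a mean for each of the 8 groups, which has more degrees of freedom, gave 93, the 35 among them. With the split by control rows as a further term, which is also the cell line by serum term, the count was again 35, of which 31 were in common. The split is balanced between the lines, so this term could not move the differences and changed only their SEs and p-values.

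**Figure D3:**
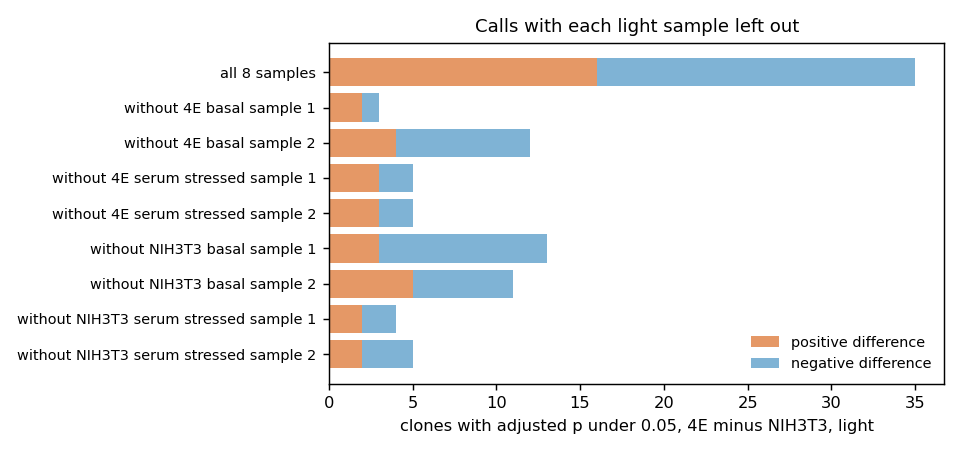
Number of clones with an adjusted p under 0.05 for 4E minus NIH3T3 in the light fraction (x axis), with all 8 samples and with each left out (rows), divided into positive and negative differences. The count is 35 with all samples and 3 to 13 with 1 left out.

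The difference was present in both serum states at the clones that passed. All 35 had the same sign in serum stressed and in basal cells, and the smaller of the 2 differences of a clone was never under 1.26 units. This follows in part from the choice by the average. The positive clones differed by 1.60 to 3.40 units (median 2.11) without serum and by 1.26 to 3.30 (median 1.75) with it. The negative clones differed by -1.32 to -4.71 units (median -2.16) without serum and by -1.42 to -2.90 (median -1.94) with it. The difference was larger in size without serum at 26 of the 35 clones. For none of the 35 did the test of serum stressed minus basal differences pass (smallest adjusted p 0.239), and its median 95% half-width over all clones was 1.17 units. The choice of the 35 favoured that outcome, because the fit of the average counts a difference between serum states as residual spread.

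Taken alone, the serum stressed samples differed between the lines at 52 clones (0.342%; 32 positive, 20 negative) and the basal samples at 3 (0.0197%; 2 positive, 1 negative), by contrasts of 4 group means with limma. Of the 35 clones, 15 were among the 52 and 1 among the 3. These counts rested on 2 samples a side: the serum stressed count was 0 and 7 without 4E serum stressed sample 1 or 2, and 2 and 70 without NIH3T3 serum stressed sample 1 or 2. Of the 70 clones, 19 were among the 52. The count was 29 without either 4E basal sample and 12 without either NIH3T3 basal sample. The basal count was 22 without 4E basal sample 1, 1 without its sample 2, 1 without NIH3T3 basal sample 1, 10 without its sample 2, and 0 without any 1 serum stressed sample of either line. Quantile normalization turned the balance of signs, to 21 positive and 23 negative serum stressed and 4 positive and 8 negative basal clones. Scaling to 1 median absolute deviation gave 6 positive and 7 negative serum stressed and 7 positive and 6 negative basal clones. Of the 52 serum stressed clones, 22 had the same sign in basal samples, against 47.5% of all clones. Among the 95 clones below, whose difference itself differed between serum states (0.625% of all clones), were 28 of the 52. Both contrasts use the serum stressed samples, which favours that overlap.

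In serum stressed samples, clone H3110A08 had the largest positive difference. It stood at 3.23 and 3.29 in 4E serum stressed samples, against -0.46 and 0.16 in NIH3T3 serum stressed samples, a difference of 3.41 (SE 0.35, limma adjusted p = 0.0144). In basal samples it stood at -0.12 and 0.30 in 4E, against 0.86 and 1.23 in NIH3T3, so its sign was the opposite there. Clone H3134F03 differed by 3.40 units serum stressed (SE 0.47, limma adjusted p = 0.0321), with 4E samples at 3.00 and 2.85 and NIH3T3 samples at -1.21 and 0.26. Its 4E basal samples were high as well, at 2.47 and 2.49, and it belonged to the 35. On the negative side were H3143B04, at -4.71 (SE 0.50, limma adjusted p = 0.0157), and H3105B10, at -3.08 (SE 0.38, limma adjusted p = 0.0213). Clone H3105B10 stood at -2.68 and -2.42 in 4E serum stressed samples, against 0.14 and 0.92 in NIH3T3 serum stressed samples, and its basal difference of 1.19 had the other sign. Both H3110A08 and H3105B10 were among the 95 clones whose difference itself differed between serum states.

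The 3 basal clones were H3058D02, H3116F01 and H3053E08. Clone H3116F01 stood at 1.11 and 0.40 in 4E basal samples, against -2.29 and -2.39 in NIH3T3 basal samples, a difference of 3.10 (SE 0.37, limma adjusted p = 0.0431). Without serum its lines came together, at -1.43 and -1.60 in 4E and at -1.78 and -1.06 in NIH3T3. Clone H3053E08 stood at 0.46 and 0.07 in 4E basal samples, against 3.78 and 3.15 in NIH3T3 basal samples, a difference of -3.20 (SE 0.38, limma adjusted p = 0.0431). Its serum stressed difference was -0.99.

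Across all clones the cell line differences of the 2 serum states did not go together, with r = -0.07, and 47.5% of clones had the same sign in both. Of the 308 clones with a difference above 1 unit in size in both states, 126 had the same sign (62 positive, 64 negative) and 182 opposite signs. The difference itself differed between serum states at 95 clones (0.625%; 48 positive, 47 negative as serum stressed minus basal), and all 95 had opposite signs in the 2 states. Choice by the contrast favours opposite signs, and at some clones 1 state was near 0, such as H3116F01 with -0.09 serum stressed. At 91 of the 95, chosen on these same values, the samples on either side of that contrast did not overlap, against 6.93% of all clones. None of the 95 belonged to the 35, whose choice by the fit of the average disfavours such clones. This contrast sets the samples with values in the control rows against those without, so the cell line by serum term and that split cannot be told apart. The 95 were uneven over the IDs: many lay between H3105B10 and H3112G06, with both signs among them. Over all clones, the number in the first part of the ID (159 numbers) took 4.97% of the variation of this contrast. Independent values would give 1.04%. Whether the ID number bears on these calls was not tested. The count was 0 without either 4E serum stressed sample (sample 1 or 2), 42 and 13 without 4E basal sample 1 or 2, 7 and 44 without NIH3T3 serum stressed sample 1 or 2, and 3 and 26 without NIH3T3 basal sample 1 or 2.

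**Figure D4:**
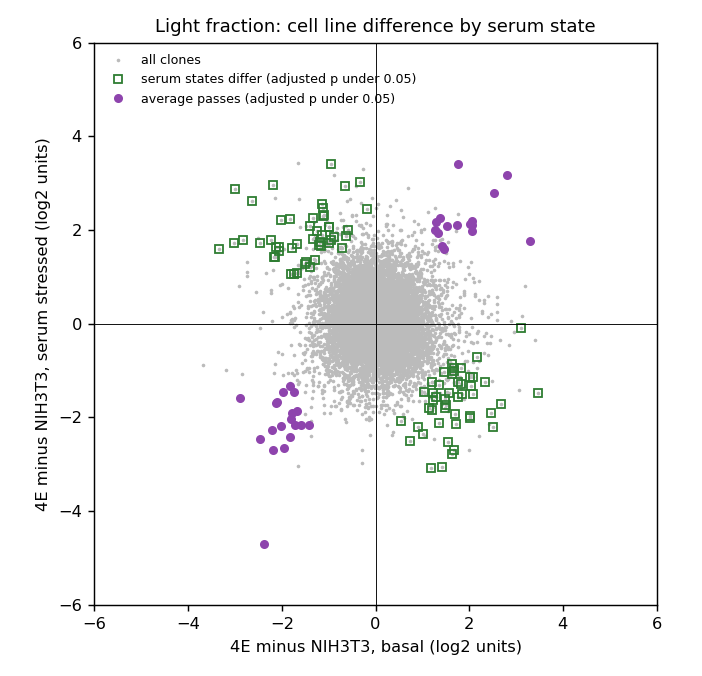
4E minus NIH3T3 difference in the light fraction, basal (x axis) against serum stressed (y axis), in log2 units, for 15210 clones (grey). The 35 clones past the threshold for the average (purple) lie in the quadrants of equal sign, and the 95 whose differences differ between serum states (green squares) lie in those of opposite sign.

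Clone H3106E06 shows what such a clone looks like. Its log2 ratio was 2.11 and 1.93 in 4E serum stressed and -1.52 and -0.78 in 4E basal samples, against -0.57 and -0.65 in NIH3T3 serum stressed and 1.01 and 1.98 in NIH3T3 basal samples. The 4 samples with control values were all high and the 4 without were all low. The cell line difference was 2.63 serum stressed and -2.65 basal, and the serum stressed minus basal contrast 5.28 (SE 0.57, limma adjusted p = 0.0154). Averaged over serum states it differed by -0.01.

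Within each side of the split, cell line and serum change together. On the side with control values, 4E serum stressed and NIH3T3 basal samples differed at 20 clones (0.131%; 12 positive, 8 negative), of which 9 were among the 35. On the side without, 4E basal and NIH3T3 serum stressed samples differed at 4 clones (0.0263%; 2 positive, 2 negative), and all 4 were among the 35. Those 4 were H3058D02, at 3.26 (SE 0.32, limma adjusted p = 0.0208), H3073H04, at 2.81 (SE 0.32, limma adjusted p = 0.0230), H3013D11, at -3.25 (SE 0.37, limma adjusted p = 0.0230), and H3010E09, at -3.22 (SE 0.35, limma adjusted p = 0.0230). The last pair are the clones of the 35 whose lines overlap over both serum states. With quantile normalization the 20 became 9 positive and 12 negative clones and the 4 became 6 positive and 17 negative. Without 1 sample the first count was 0 and 2 (4E serum stressed sample 1 and 2), 7 and 7 (4E basal), 10 and 10 (NIH3T3 serum stressed) and 2 and 12 (NIH3T3 basal). The second was 0 and 0 (4E serum stressed), 10 and 5 (4E basal), 2 and 47 (NIH3T3 serum stressed) and 3 and 3 (NIH3T3 basal).

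The heavy fraction offers the same comparison in 8 samples that the light comparison did not use. They share its cell lines, its reference and its split by control rows, and whether light and heavy pools came from the same gradients is not given. All 35 clones had the same sign in the heavy as in the light fraction, where 62.7% of all clones did. At 28 of the 35 the heavy 4E and NIH3T3 samples did not overlap, against 4.35% of all clones. Of the 77 clones with a light difference above 1.5 units in size, the 35 among them, 50.6% did not overlap there in the same direction. In the heavy fit 16 of the 35 passed, against 0.151% of all clones. They were 5 positive and 11 negative clones, against 0.0592% and 0.0921% of all clones in those directions. The heavy differences of the positive clones ran from 0.19 to 3.89 units (median 1.94) and those of the negative clones from -1.04 to -3.58 (median -1.84). At 33 of the 35 clones the heavy difference was above 1 unit in size.

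The lists of the 2 fractions overlapped in 16 clones, which is 45.7% of the 35 that passed in light and 69.6% of the 23 that passed in heavy samples (9 positive, 14 negative). All 23 heavy clones had the same sign in the light samples, at sizes of 0.62 to 3.55 units. The heavy count was 8 and 6 without 4E serum stressed sample 1 or 2, 8 and 11 without 4E basal sample 1 or 2, 6 and 7 without NIH3T3 serum stressed sample 1 or 2, and 6 and 12 without NIH3T3 basal sample 1 or 2. Quantile normalization gave 9 positive and 7 negative heavy clones.

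Clone H3073H04 had the largest heavy difference. Its heavy samples stood at 3.32 and 3.91 serum stressed and at 3.30 and 3.31 basal in 4E cells, against -0.72 and -0.26 serum stressed and -0.23 and -0.53 basal in NIH3T3 cells. The heavy difference of 3.89 (SE 0.26, limma adjusted p = 0.000292) was larger than the light one, but the light minus heavy contrast of -1.23 (SE 0.33) did not pass (limma adjusted p = 0.998). Its mean was 3.15 in light and 3.46 in heavy pools of 4E cells, against 0.49 in light and -0.43 in heavy pools of NIH3T3 cells. Clone H3058D02 differed by 2.82 (SE 0.33, limma adjusted p = 0.0108) and H3143B04 by -3.58 (SE 0.55, limma adjusted p = 0.0410), both close to their light values. Clone H3039G05 differed by -1.43 (SE 0.37) in heavy samples and did not pass there (limma adjusted p = 0.344). Its 4E heavy samples stood at -1.99 and -3.02 serum stressed and at -2.34 and -2.86 basal, against -0.40 and -1.77 serum stressed and -0.86 and -1.46 basal in NIH3T3 cells.

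**Figure D5:**
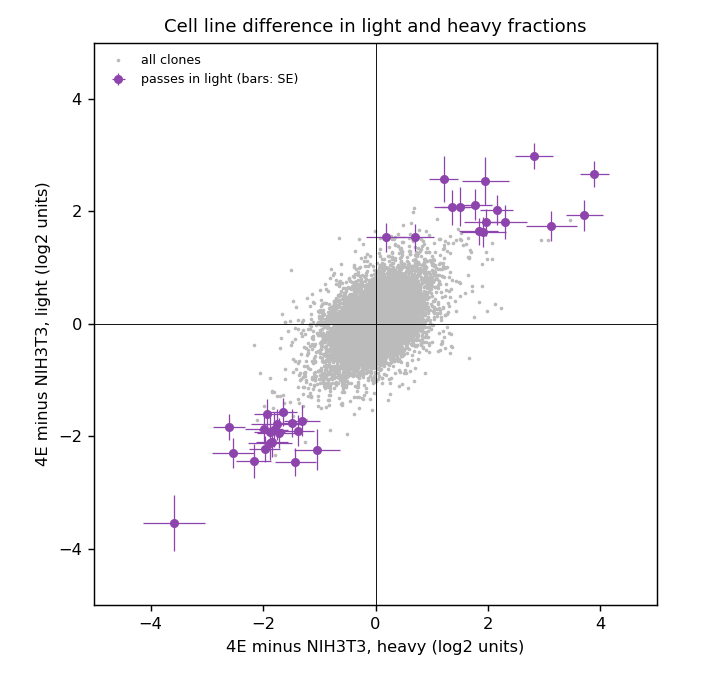
4E minus NIH3T3 difference averaged over serum states in the heavy (x axis) and light fraction (y axis), in log2 units. Grey points are 15169 clones measured in all samples and purple points the 35 clones past the threshold in light samples, with SE bars. All 35 lie in the quadrants of equal sign, and over all clones r is 0.49.

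The larger the light difference, the more often the heavy samples went the same way. Of the 12662 clones with a light difference of up to 0.5 units in size, 59.0% had the same sign in heavy samples. The share was 79.7% of 2133 clones between 0.5 and 1 unit, 91.6% of 297 clones between 1 and 1.5 units, and 96.1% of 77 clones above 1.5 units. In these bins the median heavy difference, counted along the sign of the light one, was 0.07, 0.31, 0.66 and 1.38 units, beside median light sizes of 0.18, 0.64, 1.15 and 1.72 units. The lines did not overlap in light samples at 636 of these clones. Of those, 528 (83.0%) had the same sign in heavy samples, against 62.7% of all clones. At 129 of the 636 the lines did not overlap in heavy samples either and lay in the same order (55 positive, 74 negative). At 4 they lay in the opposite order. Of all clones tested, the lines did not overlap at 4.19% in light and at 4.35% in heavy samples, in either order.

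No clone was shown to differ between the lines in light more or less than in heavy samples. In the fit of 8 group means over all 16 samples, 0 of 15169 clones (0%) passed for the light minus the heavy difference by limma, and 388 (2.56%) had an unadjusted p under 0.05. Without any difference a share of 0.05 would be expected, so the test may be too cautious. It takes light and heavy samples as independent, and the count of 0 does not show that the fractions are alike. The median 95% half-width of the light minus heavy contrast was 0.84 units, not adjusted for the number of clones. Of the 35 clones, 8 had an unadjusted p under 0.05, 5 with the larger difference in light and 3 with the larger in heavy samples. The choice of the 35 by their light values favours larger light differences. Clone H3009C04, which is not among the 35, had the smallest p of a positive contrast, with a light difference of -0.37, a heavy difference of -2.17 and a light minus heavy contrast of 1.80 (SE 0.37, limma adjusted p = 0.998). Its 4E heavy samples were low without serum only, at -2.99 and -3.47 serum stressed and at -0.24 and -0.28 basal. Clone H3089A10, one of the 35, had the smallest p of a negative contrast, with a light difference of 1.93, a heavy difference of 3.72 and a light minus heavy contrast of -1.79 (SE 0.42, limma adjusted p = 0.998). Its NIH3T3 samples stood at 0.63 and 0.30 serum stressed and 0.80 and 0.64 basal in light pools, and at -0.59 and -0.86 serum stressed and -0.49 and -0.78 basal in heavy pools. Its 4E samples overlapped between the fractions, from 2.09 to 2.96 in light and from 2.37 to 4.08 in heavy pools.

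The columns of a pair agreed closely at the clones that passed. The mean gap between upper and lower column over the 8 light samples had a median of 0.17 units over the 35 clones and of 0.21 over all clones, and it lay between 0.08 and 0.49 units at the 35. At 24 of the 35 the columns were unequal in every light sample, against 39.8% of all clones, and no clone of the 35 had equal columns in more than 2 light samples. The 35 clones carry 30 different numbers in the first part of the ID, out of 159 in the table, with at most 3 clones to a number.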

How the data were processed

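The authors deposited 1 table of log ratios, taken here as log2 values, of 15247 clones and 2 control rows in 32 columns. The sources used here do not give log base, direction, scanner or spot processing. Signal over background is not used here, and precision is limited by the number of arrays.

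The clones of the light fit were those with a value in all 8 light samples (15210 of 15247; 15203 for heavy samples, 15169 for all 16). Column pairs were averaged and each sample centred on its median. Differences were tested with limma (version 3.58.1, R 4.3.3), lmFit and eBayes, with Benjamini-Hochberg adjustment over all clones tested and a threshold of 0.05. The average over serum states was fitted on the 8 light samples as cell line plus serum state (5 residual degrees of freedom, prior 5.59), heavy samples likewise. Single states and their contrast came from 4 group means of the light samples, and the light minus heavy contrast from 8 group means. The fit was run on simulated data, drawn as independent normal values with no cell line by serum term and no split by control rows. That run bears on the working of the fit and not on the calls made here. Named clones are the 2 largest of each sign past the threshold whose sides do not overlap, a rule written for genes and applied to IDs. H3013D11 and H3010E09, which overlap over both states but not in the comparison that names them, follow it too. Samples, lists and tests were chosen with earlier results of these data known. The gene lists and markers planned could not be run without gene names. Alternatives were other normalizations, filters, covariates, single columns and left-out samples.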

Additional observations from a re-analysis of the deposited data

Results flagged for a closer look

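The cell line difference in the light fraction differed between the serum states at 95 clones by a test of that difference itself (limma, contrast of 4 group means, adjusted p under 0.05). The contrast coincides with the division of the samples by filled control rows, and the 2 cannot be told apart. The size of the contrast at these clones was 2.33 to 5.88 units (median 3.25), and 91 of the 95 had no overlap between the sides of the split, against 6.93% of all clones. Averaged over serum states, their differences had a median size of 0.36 units, against 0.22 over all clones, and 3 of the 95 had an unadjusted p under 0.05 there, against 7.42% of all clones. The fit of the average has no cell line by serum term, so a large contrast adds to its residual spread and raises the p there. The low share of the 95 with an unadjusted p under 0.05 follows in part from that. The 95 were chosen on the contrast, so their lack of overlap follows in part from the choice. They were uneven over the IDs, and many lay between H3105B10 and H3112G06. None of 12 groups of values tested for a single outlying sample had one: the 4E and the NIH3T3 light samples of the 4 clones named for the average, and 4 measures of the 8 light samples.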

How the results depend on the processing

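The count of 35 clones stayed within 1.5 times under 11 of 14 settings that kept all samples (24 to 39 clones). It did so in none of the 8 fits without 1 sample (3 to 13). The 4 clones named for it kept their sign in every alternative, which their lack of overlap all but fixed. The counts below are in a fixed order: the light average, light basal, light serum stressed, serum stressed minus basal, 4E serum stressed minus NIH3T3 basal, 4E basal minus NIH3T3 serum stressed, and the heavy average. With all samples they were 35, 3, 52, 95, 20, 4 and 23. The fit of all 16 samples with 8 group means gave 93, 21, 146, 160, 81, 40 and 77. Each column as a replicate, which counts every sample 2 times over, gave 1320, 2063, 3316, 2772, 2150, 2086 and 1179, and 245 for light minus heavy, where clone H3089A10 then passed at -1.79. The pair number as a replicate block gave 10, 0, 11, 48, 11, 0 and 8. Deviations of samples with the same number correlated at -0.22 to 0.22 over 6 pairs of groups, 2 over 0.1 and 4 below -0.1, so same-numbered samples did not deviate together throughout. Whether samples are paired in another order was not tested. The lower column alone gave 0 basal, 8 serum stressed, 46 for their contrast, and 10 and 2 within the split. The upper column gave 0 basal, and 33 for 4E serum stressed minus NIH3T3 basal. Scaling to 1 median absolute deviation gave 13 basal, 13 serum stressed and 11 for 4E basal minus NIH3T3 serum stressed. Quantile normalization gave 12 basal and 23 for 4E basal minus NIH3T3 serum stressed. Clones with unequal columns gave 33 for the contrast of states, and 34 and 17 within the split. Array weights gave 23 serum stressed, and a robust prior gave 32 for 4E serum stressed minus NIH3T3 basal. Fits of only the 2 groups compared gave 0 basal and 0 serum stressed (1373 and 1670 at an unadjusted p under 0.05, limma). The other counts of 0 by limma within the light fraction had 1192 to 1343 clones at an unadjusted p under 0.05 with all samples and 1247 to 1863 without 1 sample. For light minus heavy these were 54 to 417 and 333 to 819. No serum covariate gave 12 heavy. Left-out samples gave 3 to 13, 0 to 22, 0 to 70, 0 to 44, 0 to 12, 0 to 47 and 6 to 12, and 0 to 3 for light minus heavy. The causes were not tested, except that left-out samples and filters leave fewer samples or clones.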

Other observations

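Among the 35 clones were 2 pairs with consecutive IDs, seen after the values. In clones H3028F03 and H3028F04 the 4E minus NIH3T3 difference was 1.80 and 1.64 units. Their light samples differed by 0.12 units in the median and by at most 0.21, while clones with consecutive IDs differed in the median by 0.53 units over all 13909 such pairs of the table. The other pair differed by 2.07 and 2.08, with a median gap of 0.15 between its light samples and a largest gap of 0.67. Over all such pairs the differences correlated at r = 0.05 across clones, and for IDs 2 apart likewise at r = 0.05. Whether these neighbours carry the same cDNA was not tested.

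The first part of the ID took 2.56% of the variation of the light cell line difference over clones, where independent values would give 1.04%, and 4.97% of that of the serum stressed minus basal contrast. The mean light difference of an ID number lay between -0.13 and 0.23 units.

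The control rows had wide gaps between their columns. In the 4 light samples with values the gap was 1.91 to 3.28 units for 3XSSC and 1.88 to 3.40 for Arabidopsis, while the median gap of clones with unequal columns was 0.17 to 0.21 units in the 8 light samples.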
